A study of Mus musculus with 2 samples.

Results

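The cells described here are visceral endoderm cells outside the anterior, taken from single-cell RNA-seq of mouse embryos at embryonic day (E) 7. They were chosen by measured values. Barcodes with at least 5000 detected genes and at most 10% mitochondrial unique molecular identifiers (UMIs) were kept. A member had at least 1000 CPM (UMIs of a gene divided by all UMIs of the cell, scaled to 1e6) of *Ttr*, *Afp*, *Apoa1*, *Rbp4* and *Apoa4* summed, called the gate sum. It also had fewer than 5 UMIs of the anterior genes *Sfrp5*, *Dkk1* and *Hesx1* summed and at most 1 UMI of *Pou5f1*. These genes therefore describe the choice, and their values below support nothing. The rule found 68 members among 791 kept control cells (8.60%, exact 95% interval 6.74 to 10.8) and 171 among 864 kept *Yap1* cKO cells (19.8%, 17.2 to 22.6), 239 of 1655 in all.

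Each genotype was measured in 1 10x Genomics 3′ library, made from 4 pooled control embryos and from 3 pooled *Yap1* cKO embryos. The *Yap1* cKO embryos carried *Yap1* flox/flox with Sox2-Cre. The controls are called WT in the sample labels, are given as Sox2-Cre embryos with 1 floxed *Yap1* allele in the single-cell methods, and as floxed littermates without Cre in the methods on mice. Sox2-Cre acts in the epiblast and not in the extraembryonic lineages, and the extraembryonic tissue of floxed embryos is held to be probably heterozygous for *Yap1*, in the methods for embryos without Cre and in the study's discussion for both groups. The labels call both pools female, yet both libraries held Y-bearing members. These had more than 1 UMI of the Y-linked genes *Ddx3y*, *Eif2s3y*, *Kdm5d* and *Uty* summed and no *Xist* UMI. They were 23 of the control members (33.8%) and 8 of the *Yap1* cKO members (4.68%). *Xist*-bearing members, with more than 1 *Xist* UMI and no UMI of these Y-linked genes, were 38 (55.9%) and 148 (86.5%). Members that met neither rule were in neither group. The share of Y-bearing members thus differed between the libraries, and its part in any genotype ratio was not tested.

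With 1 library per genotype there is no replicate, so no p-value or standard error is given, and counts of genes past a fold describe these libraries and not the genotypes. Levels are UMIs of a gene summed over the members of a library and scaled to CPM. Exact 95% intervals, in parentheses, cover counting error only. The libraries held 70573418 and 87937858 UMIs in 1829 and 1897 barcodes. The members had a median of 73174 UMIs in the control (26644 to 156369) and 74610 in *Yap1* cKO (18857 to 214094). Their median numbers of detected genes were 7904 and 7790. The libraries shared 2 barcodes, 0 of them members.

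The visceral endoderm is the epithelium that covers the outside of the early mouse embryo before the placenta works. Over the extraembryonic ectoderm it is tall and absorptive, with an apical brush border and large vacuoles, while over the epiblast it is flatter. Its receptors cubilin, amnionless and megalin take up maternal protein at the apical side, lysosomes break it down, and the cell exports lipoproteins, retinol-binding protein and plasma proteins towards the embryo. In this respect the tissue does work that the liver, gut and kidney do later.

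The label was checked against 6 markers. *Ttr* stood at 3924 and 3637 CPM in control and *Yap1* cKO members, *Rbp4* at 3275 and 3934 CPM, and *Apoa4* at 215 and 184 CPM, which describes the gate. The 3 markers that the rule did not use were present too: *Cubn* at 1587 (1553 to 1622) and 1592 (1571 to 1613) CPM, *Amn* at 712 (689 to 736) and 621 (608 to 634), and *Dab2* at 2066 (2027 to 2106) and 1951 (1928 to 1975). In extraembryonic ectoderm cells of the same libraries, 189 control and 102 *Yap1* cKO cells with at least 5 UMIs of *Elf5*, *Cdx2* and *Tfap2c* and a gate sum under 1000 CPM, *Cubn* was at 0.113 and 0.483 CPM. After thinning to 38000 UMIs per cell, *Cubn* was seen in 100% of 63 control members and 99.3% of 148 *Yap1* cKO members, against 0.549% and 3.09% of the extraembryonic ectoderm cells. Without thinning the shares were 98.5% and 99.4% in the members, at the median depths above, against 1.06% and 4.9% in extraembryonic ectoderm cells, with median depths of 84156 and 102230 UMIs. Thinning left out 5 control and 23 *Yap1* cKO members.

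The gate sum chose the members, so the values on either side of its limit describe the choice. The 3 control members with the lowest gate sum had 1444, 1893 and 2275 CPM. Outside the gate, 3 control cells had 51.8, 49.0 and 48.9 CPM, and other kept control cells reached 417 CPM. In *Yap1* cKO these were 1625, 2226 and 2301 CPM inside, and 857, 337 and 58.8 CPM outside. At the border with the anterior cells, counts lay close to the limit on both sides. Of the members, 9 control and 15 *Yap1* cKO cells had 3 or 4 UMIs of *Sfrp5*, *Dkk1* and *Hesx1*, while 6 of 26 and 16 of 49 anterior cells had 5 to 7. A further 3 and 4 cells passed the gate but held more than 1 *Pou5f1* UMI and were left out of every set.

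*Yap1*, which encodes the coactivator that Hippo signalling restrains, was present in members of both genotypes. Its level was 31.7 CPM (27.0 to 36.9) in control members and 26.6 CPM (24.0 to 29.5) in *Yap1* cKO members, a ratio of 0.840 (0.697 to 1.02). In *Pou5f1*-positive cells, 89 and 125 cells with at least 10 UMIs of *Pou5f1*, it was 28.2 CPM in the control and 1.30 CPM (0.823 to 1.95) in *Yap1* cKO. The low level was in the cells in which Sox2-Cre acts. In extraembryonic ectoderm cells the levels were 25 and 18.2 CPM, and in anterior visceral endoderm cells 35.6 and 26.2 CPM. The ratio differed in direction between subsets of the members: it was 0.526 among Y-bearing members, of which *Yap1* cKO has 8, and 1.2 among *Xist*-bearing members. The interval of the ratio over all members includes 1.

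The tested Hippo pathway genes lay within 1.5-fold between the genotypes. None of the 8 tested genes of an 11-gene list lay past 1.5-fold between genotypes in either direction, with a median log2 ratio of -0.18 against -0.03 over all 7605 genes tested. Of all genes tested 0.736% lay past 1.5-fold upwards and 1.09% downwards, so a count of 0 of 8 is near the background. *Wwtr1*, which encodes the related coactivator TAZ, was at 41.6 and 35.4 CPM, a ratio of 0.852 that was 0.385 among Y-bearing and 1.07 among *Xist*-bearing members. *Amotl2*, encoding a junction protein that binds YAP1, had a ratio of 0.824, and of 1.44 among Y-bearing members. *Wwc2*, encoding a scaffold of the pathway, was at 104 and 120 CPM. The target genes *Ccn1* and *Ccn2* were at 2.51 and 1.46 CPM and at 3.09 and 2.55 CPM, too few UMIs for the tested genes.

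Genes of endocytic uptake were high in the members. On GRCm38, *Cubn* lies at chr2:13276338-13491813, *Amn* at chr12:111271095-111276426, *Lrp2* at chr2:69424340-69586065 and *Dab2* at chr15:6299788-6440712 (gene bounds of GENCODE M21). *Cubn* and *Amn* encode the receptor complex for vitamin B12 with intrinsic factor and for protein ligands, *Lrp2* encodes the megalin receptor and *Dab2* the adaptor that links the receptors to clathrin. The 14 genes of the uptake list summed to 6505 and 6178 CPM in the members and to 443 and 408 CPM in extraembryonic ectoderm cells. Of 13 tested, 9 lay 2-fold or more above all other kept cells in both libraries, where 10.9% of 10888 genes tested did (genes with 200 UMIs or more in members and other kept cells together, in each library). A gene that is rare in the other cells passes this minimum only through the members, so these counts of tested genes are a description. *Lrp2* stood at 337 (321 to 353) and 336 (327 to 346) CPM in the members, against 0.225 and 0.241 CPM in extraembryonic ectoderm cells. *Lrp2* was not confined to the endoderm, since 70.5% of the thinned control *Pou5f1*-positive cells and 43.2% of those in *Yap1* cKO had a UMI of it.

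Single members varied widely in these genes. *Cubn* ranged from 0 to 4342 CPM over the control members with a median of 1579, and from 0 to 5833 CPM over the *Yap1* cKO members with a median of 1580. *Lrp2* ranged from 0 to 1109 CPM (median 317) and from 0 to 1332 CPM (median 333). *Dab2* had no member at 0 and ranged from 480 to 5190 CPM (median 1951) and from 156 to 4232 CPM (median 1962). For each of these 3 genes the ranges of the libraries overlapped almost fully and the medians were close.

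**Figure D1:**
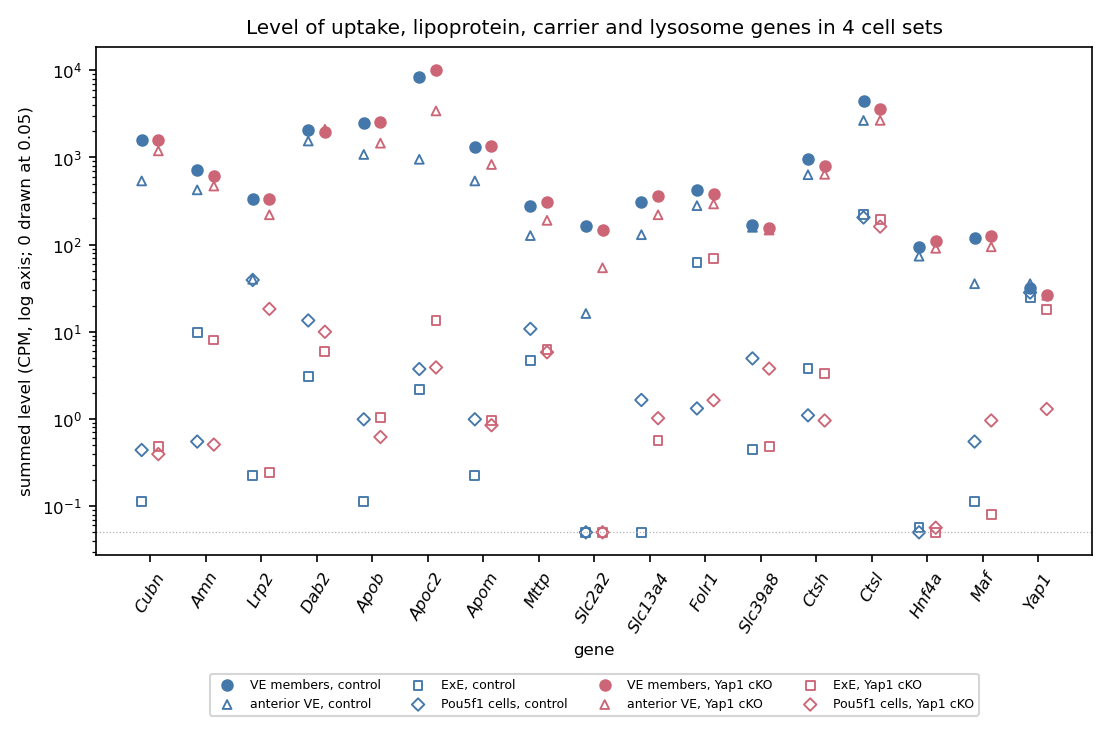
Summed level in CPM (log axis, with 0 drawn at 0.05) of 17 genes in the visceral endoderm members (filled circles), anterior visceral endoderm cells (triangles), extraembryonic ectoderm cells (squares) and *Pou5f1*-positive cells (diamonds) of the control (blue) and *Yap1* cKO (red) libraries, each with no replicate. The members' *Cubn* (1587 and 1592 CPM) lies far above the extraembryonic ectoderm values, while *Yap1* lies close in all sets except the *Yap1* cKO *Pou5f1*-positive cells at 1.30 CPM.

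Lipoprotein genes were abundant in the members. The 15 genes of the list summed to 19207 and 20118 CPM in the members, without the gate genes, and 8 of 9 tested lay 2-fold or more above the other kept cells in both libraries. *Apoc2* (chr7:19671579-19677941), the cofactor of lipoprotein lipase, stood at 8302 (8224 to 8381) and 10052 (9999 to 10105) CPM. It was at 2.19 and 13.4 CPM in extraembryonic ectoderm cells. *Apoe*, a ligand of lipoprotein receptors, was at 6110 and 5183 CPM, and *Apob*, the structural protein of the particles, at 2505 and 2538 CPM. *Mttp*, which loads lipid onto the *Apob* protein, was at 277 and 305 CPM. *Apom*, a carrier of small lipids, was at 1315 and 1342 CPM.

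*Apoc2* varied from 0 to 18706 CPM over control members (median 8735) and from 52.0 to 28031 CPM over *Yap1* cKO members (median 9694). *Apob* varied from 188 to 9052 CPM (median 2353) and from 125 to 20311 CPM (median 2294). Every member held *Apob* UMIs, and all but 2 control members held *Apoc2* UMIs.

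Genes of other plasma proteins were expressed at lower sums and unevenly. The list of 18 summed to 655 and 559 CPM. It also held *Soat2*, a sterol acyltransferase gene whose product is not secreted, with medians per cell of 120 and 103 CPM. This gene therefore counts in the sums and medians given for the plasma protein list. The fibrinogen genes were present, *Fgb* at 150 (139 to 161) and 115 (110 to 121) CPM, *Fgg* at 92.6 and 62.7 CPM and *Fga* at 34.0 and 28.5 CPM. *Trf*, the plasma iron carrier, was at 116 and 99.3 CPM, *Spp2*, encoding a secreted phosphoprotein, at 88.5 and 89.1 CPM, and the coagulation gene *F10* at 26.7 and 26.4 CPM. *Alb*, the main plasma protein of the liver, had 0 UMIs in the members of either library.

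Iron storage genes were abundant. *Fth1* and *Ftl1*, the ferritin chains, stood at 9418 and 10591 CPM and at 3844 and 4033 CPM, against 1264 and 1364 CPM and 1898 and 1875 CPM in extraembryonic ectoderm cells. *Tfrc*, the transferrin receptor, was lower in the members than in extraembryonic ectoderm cells, at 16.0 and 17.3 against 115 and 93.0 CPM. The iron exporter gene *Slc40a1* was at 42.3 (36.9 to 48.3) and 29.8 (27.0 to 32.8) CPM. Of 10 iron genes tested, 5 lay 2-fold or more above the other kept cells in both libraries.

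The members carried a set of membrane carriers of absorptive epithelia. Of 17 carrier and folate genes tested, 12 lay 2-fold or more above the other kept cells in both libraries, with sums over all 19 of 4217 and 4336 CPM. *Slc2a3*, a glucose transporter, was at 1423 and 1500 CPM, and *Slc16a1*, a monocarboxylate transporter, at 721 and 759 CPM. *Slc2a2*, the glucose transporter also used by liver and gut, was at 162 (151 to 174) and 149 (143 to 156) CPM and had 0 UMIs in extraembryonic ectoderm cells. *Folr1*, a folate receptor, was at 422 and 383 CPM, the sulfate transporter gene *Slc13a4* at 307 and 357 CPM, and the zinc transporter genes *Slc39a8* and *Slc39a5* at 168 and 156 CPM and at 94.5 and 101 CPM. *Slc7a7* and *Slc7a8*, which encode light chains of amino acid transporters, were at 239 and 239 CPM and at 187 and 216 CPM. *Slc2a1*, the glucose transporter common to many cells, was lower in the members than in extraembryonic ectoderm cells, at 120 and 104 against 289 and 252 CPM.

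Lysosomal genes were high as well. Of 20 genes, 16 passed the same 2-fold bound, and the list summed to 10443 and 9116 CPM against 1552 and 1505 CPM in extraembryonic ectoderm cells. The proteases led in level: *Ctsl* was at 4501 (4444 to 4559) and 3637 (3605 to 3669) CPM, *Ctsh* at 960 and 797 CPM, *Ctsb* at 891 and 885 CPM and *Lgmn* at 835 and 826 CPM. *Npc2*, which carries cholesterol out of the lysosome, was at 315 and 297 CPM. *Psap*, the precursor of the saposins, went the other way, at 14.1 and 19.1 CPM in the members and 55.7 and 57.7 CPM in extraembryonic ectoderm cells.

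Lists of metabolic enzymes differed in how many genes passed the same 2-fold bound, which 10.9% of all genes tested did. With so few genes, the counts for the cholesterol and retinoid lists are near that share. None of 14 cholesterol synthesis genes lay 2-fold above the other kept cells in both libraries, and this list summed to 349 and 351 CPM, against 734 and 679 CPM in extraembryonic ectoderm cells. Genes of glucose use summed to 4943 and 5003 CPM against 10305 and 11166 CPM there. Of 15 genes of fatty acid use and storage 6 did, and the most abundant was *Acsl3*, an acyl-CoA synthetase gene, at 293 and 271 CPM. The fatty acid binding protein genes went opposite ways: *Fabp1* was at 51.0 and 68.4 CPM against 0 and 0.483 CPM in extraembryonic ectoderm cells, and *Fabp3* at 41.6 and 34.3 CPM against 1074 and 1324 CPM. Of 15 redox and amino acid enzyme genes 8 did, among them *Gpx3*, a secreted glutathione peroxidase, at 204 and 251 CPM, and *Mgst3* at 251 and 272 CPM. Of 5 retinoid genes 1 did, *Rdh10*, a retinol dehydrogenase gene, at 56.1 and 45.5 CPM. *Cyp26a1*, which degrades retinoic acid, was at 88.9 and 117 CPM, while *Lrat*, *Aldh1a1* and *Cyp26b1* had 0 UMIs.

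Transcription factors of the endoderm accompanied these genes. Of 13 regulators tested, 10 lay 2-fold or more above the other kept cells in both libraries. *Hnf4a*, which drives hepatic and visceral endoderm genes, was at 93.8 (85.6 to 102) and 111 (106 to 117) CPM, *Gata4* at 172 and 181 CPM, *Maf* at 119 and 127 CPM and *Creb3l3* at 66.9 and 64.6 CPM. By the rule for genes most above the other kept cells, the 10 leading genes were *S100g*, *Lgals2*, *Apoc2*, *Slc2a2*, *Car7*, *Aqp3*, *Fxyd2*, *Apob*, *Smlr1* and *Fgb*. *Slc2a2* was 198 times as high in the control and 40.7 times in *Yap1* cKO, and *S100g*, a calcium-binding protein gene, 149 and 45.6 times. These other kept cells include the anterior visceral endoderm, so the ratios are not those against cells without endoderm character.

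The anterior cells belong to the same epithelium as the members. Of 4919 genes tested, 31 (0.630%) were 2-fold or more above the anterior cells in both libraries, and 112 (2.28%) were 2-fold or more below. The higher genes included the lipoprotein genes *Apoa2*, *Apoc2* and *Apoc3*, the carrier gene *Slc2a2*, *Gstm1*, *Gpx3*, *Spp2*, *Fxyd2* and *S100g*. *Apoc2* was 8.71 times as high in the control members and 2.94 times in the *Yap1* cKO members. The lower genes included the epithelial genes *Krt8*, *Krt18*, *Krt19* and *Epcam*, the signalling genes *Bmp2*, *Fgf5*, *Trh* and *Sfrp1*, and *Sox17* and *Tead2*. *Krt8* in the members was 0.278 and 0.327 times its level in the anterior cells, and *Bmp2* 0.244 and 0.248 times. Uptake genes varied: *Dab2* was 1.34 and 0.927 times and *Amn* 1.68 and 1.32 times the anterior level, while *Lrp2* lay further above it in the control. The size of the difference was not the same in the libraries for *Lrp2*, at 8.42 times in the control and 1.53 times in *Yap1* cKO. The anterior cells were chosen by 3 genes of this lineage, and no test of these ratios is possible with 1 library each.

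To describe the spread between the embryonic and the extraembryonic side, each member was scored by the mean log2(CPM + 10) of *Otx2*, *Foxa2*, *Lhx1*, *Hhex*, *Cer1* and *Eomes*, genes of the visceral endoderm over the epiblast. Of the 6, *Lhx1*, *Hhex* and *Cer1* are also anterior genes, so the score does not tell anterior character from the embryonic side in general. A member without a UMI of any of the 6 has a score of 3.32. Members of both libraries were cut at scores of 3.77 and 4.10 into low-score, middle-score and high-score members, with about equal numbers overall. These score groups are ranges of a score and not cell types. The control had 19, 23 and 26 low-score, middle-score and high-score members, and *Yap1* cKO 61, 56 and 54. Many lay within 0.1 of a limit: 6, 8 and 3 control members and 21, 27 and 14 *Yap1* cKO members. Depth moved with the score in *Yap1* cKO, with median UMIs of 58374, 78604 and 86082 from the low-score to the high-score group, and less so in the control, with 71696, 85382 and 70737. The median gate sum was 12447, 14513 and 9195 CPM in the control and 13669, 12683 and 10732 CPM in *Yap1* cKO. The part of depth in the differences between score groups was not tested, beyond scoring the thinned cells.

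Of 6700 genes tested, 52 (0.776%) were at least 2 times as high in high-score as in low-score members in both libraries, and 2 (0.0299%) at least 2 times as high in low-score members. No gene lay past 2-fold in opposite directions. The 2 low-score genes were *Smpdl3b* and *Arhgef4*, and most of their control UMIs came from few members: a single member gave 42.3% of the *Smpdl3b* UMIs and 4 members gave 94.3% of the *Arhgef4* UMIs. Several export and absorption genes lay lower in high-score members, by less than 2-fold in at least 1 library, and others did not. No uptake, lipoprotein, plasma protein, iron, carrier or lysosome gene of the lists lay past 2-fold in both libraries. The median log2 ratio of high-score over low-score members was -0.43 in the control and -0.25 in *Yap1* cKO for 9 lipoprotein genes, -0.11 and -0.02 for 12 uptake genes, -0.28 and -0.03 for 16 carrier genes, -0.31 and 0.00 for 8 plasma protein genes and -0.25 and -0.07 for 17 lysosome genes. Over all genes tested it was 0.02 and 0.03.

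*Apoc2* was lower in high-score members of both libraries. Its summed level was 10649 CPM in low-score and 5583 CPM in high-score control members, a ratio of 0.524 (0.511 to 0.538), and 11370 and 7821 CPM in *Yap1* cKO, a ratio of 0.688 (0.679 to 0.697). Per cell it ranged from 4599 to 18706 CPM (median 10987) in low-score control members and from 0 to 15444 CPM (median 5352) in high-score control members. In *Yap1* cKO it ranged from 1598 to 28031 CPM (median 10696) and from 52.0 to 14717 CPM (median 8268). The ranges of the score groups overlapped in each library, while the medians were lower in high-score members. *Apoa2* had ratios of 0.284 (0.217 to 0.368) and 0.517 (0.450 to 0.594), *Aqp3*, a water and glycerol channel gene, 0.349 and 0.636, *Fabp1* 0.477 and 0.628 and *Slc2a2* 0.654 and 0.698. *Apob* went opposite ways, with ratios of 0.805 (0.768 to 0.843) in the control and 1.11 (1.08 to 1.14) in *Yap1* cKO, where its medians per cell were 2097, 2280 and 2769 CPM from the low-score to the high-score group. With cells scored after thinning, the *Apob* ratio in the control was 1.04 and those of *Apoa2* were 0.555 and 0.910. With the members cut at the middle of the score the control ratios were 0.626 for *Aqp3* and 0.786 for *Fabp1*. *Apoc1* had ratios of 0.961 (0.852 to 1.08) and 1.10 (1.03 to 1.18).

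*S100g* and *Lgals2* behaved likewise. *Lgals2*, encoding a galectin, had medians per cell of 345, 250 and 132 CPM from the low-score to the high-score group of the control and of 330, 340 and 180 CPM in *Yap1* cKO. In sums its ratio of high-score to low-score members was 0.560 (0.486 to 0.645) and 0.597 (0.553 to 0.645). *S100g* had ratios of 0.469 (0.417 to 0.526) and 0.560 (0.518 to 0.605), but in *Yap1* cKO its ratio was 1.01 when cells were scored after thinning. *Gstm1*, a glutathione transferase gene, had ratios of 0.578 and 0.494.

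The receptor genes lay below 1 in high-score over low-score members. *Cubn* had a ratio of 0.770 (0.728 to 0.815) in the control and 0.944 (0.913 to 0.976) in *Yap1* cKO, the latter 1.08 with the thinned score, and *Lrp2* 0.691 and 0.863. *Dab2* was at 1.06 in both. The regulators *Hnf4a*, at 0.937 and 0.988, and *Gata4*, at 1.13 and 1.11, had intervals or values close to 1. *Ctsl* was lower in high-score members, at 0.630 (0.609 to 0.652) and 0.838 (0.819 to 0.856).

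Genes higher in high-score members included signalling genes. *Bmp2*, a ligand of the BMP family, was 5.93 (3.24 to 11.9) times as high as in low-score members in the control and 2.51 (1.85 to 3.43) times in *Yap1* cKO. With the members cut at the middle of the score its control ratio was 1.72. Per cell its medians were 0, 18.5 and 39.5 CPM from the low-score to the high-score group of the control and 0, 11.1 and 21.8 CPM in *Yap1* cKO. *Spink1*, a secreted protease inhibitor gene, was 1.65 and 1.49 times as high, the factor gene *Tead2* 2.99 and 2.22 times, and *Fabp3* 2.62 and 5.29 times. The *Fabp3* sums came from few members: its median per cell was 0 in every score group, 13 of 54 high-score and 11 of 61 low-score members of *Yap1* cKO had a UMI, and 1 high-score member held 1906 CPM. *Rspo3*, which enhances Wnt signalling, was 14.2 (4.62 to 70.8) and 88.9 (15.6 to 3549) times as high, with 1 UMI in low-score members of *Yap1* cKO. Its *Yap1* cKO ratio was 6.87 with the members cut at the middle of the score and 10.1 with the thinned score, and its control ratio was 5.79 with under 2 anterior UMIs. In the control 4 members held 81.2% of its UMIs. Of 10 genes listed as regional on the embryonic side 6 were tested, and 4 of them (*Bmp2*, *Fgf5*, *Trh* and *Krt19*) were among the 52, where 0.776% of all genes tested were. In the control *Fgf5* and *Trh* had 0 UMIs and *Krt19* 1 UMI in low-score members, so these 3 passed the minimum of 50 UMIs through the high-score group, and nothing is read from the count. Of 9 regional genes of the extraembryonic side, all 9 were tested and none was among the 2, with median log2 ratios of -0.35 and -0.36.

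**Figure D2:**
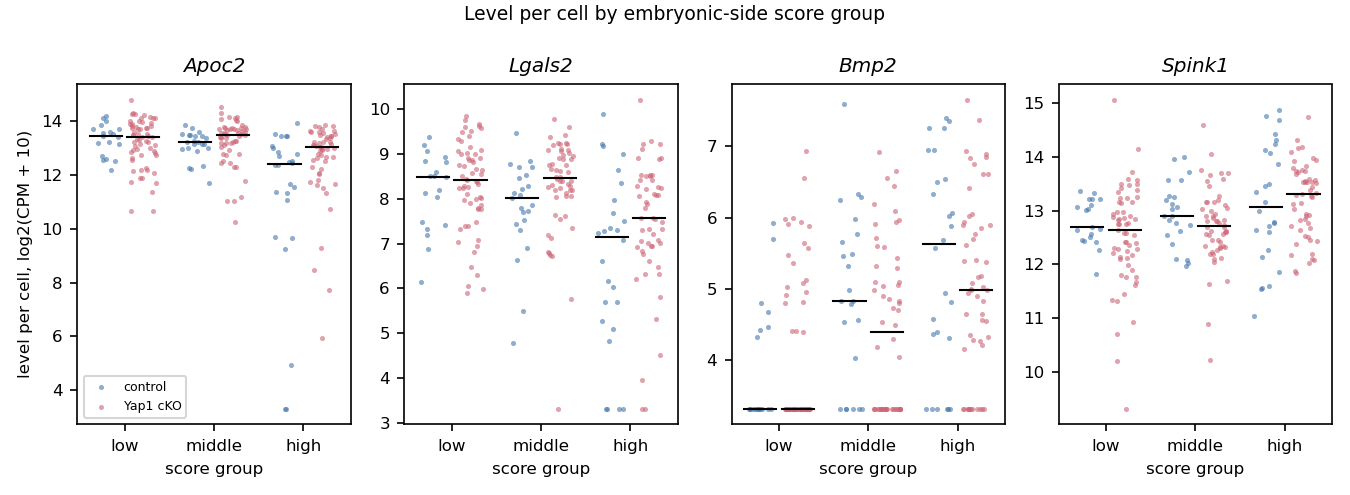
Level per cell, as log2(CPM + 10), of *Apoc2*, *Lgals2*, *Bmp2* and *Spink1* in low-score, middle-score and high-score groups of control (blue) and *Yap1* cKO (red) members; each point is a cell and the black bars are medians. The *Apoc2* and *Lgals2* medians are lowest in the high-score group in both libraries, and those of *Bmp2* and *Spink1* are highest there, with wide overlap between groups.

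A few members carried much of the high-score signal. In each library 2 members had at least 100 CPM of *Krt19*, a keratin gene. Their scores were 8.45 and 7.67 in the control and 7.69 and 5.80 in *Yap1* cKO, and their gate sums of 2275, 1893, 1625 and 2301 CPM were among the lowest. They had 0 UMIs of *Lrp2*, at most 83.5 CPM of *Cubn* and at most 204 CPM of *Apoc2*. *Dab2* was at 156 to 570 CPM, *Apob* at 188 to 677 CPM, *Apoe* at 4446 to 6150 CPM and *Spink1* at 11220 to 14202 CPM. *Cer1*, a score gene that is also an anterior gene, was at 564 and 525 CPM in the control pair and 247 and 9.28 CPM in the *Yap1* cKO pair. The epiblast gene *Fgf5* was at 288 to 661 CPM and *Cyp26a1* at 659 to 1534 CPM. The 4 members of each library with the most UMIs of a gene held 88.4% and 90.9% of the *Trh* UMIs and 86.4% and 91.9% of the *Krt19* UMIs. Without the 4 members with high *Krt19*, a pair from each library, 31 genes lay past 2-fold in high-score members, all of them among the 52. *Trh* in *Yap1* cKO went from 25.5 to 2.25 and *Cyp26a1* from 2.60 and 1.84 to 1.63 and 1.39. With the gate sum raised to 5000 CPM, 13 genes remained of the 52.

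**Figure D3:**
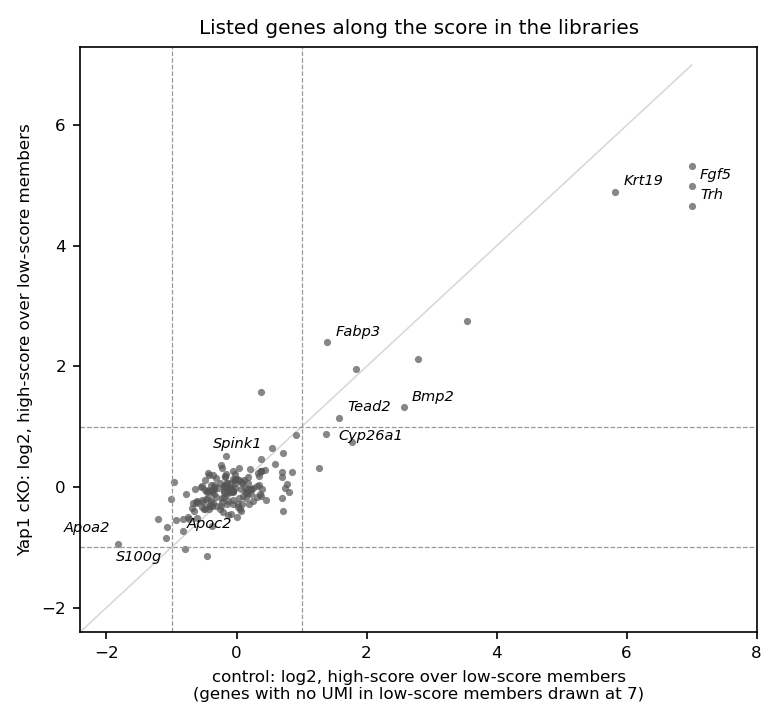
Log2 ratio of high-score over low-score members for listed genes in the control (horizontal axis) and *Yap1* cKO (vertical axis), on log2 axes with dashed lines at 2-fold; genes without a UMI in low-score control members are drawn at 7 on the horizontal axis. *Bmp2*, *Tead2* and *Fabp3* lie past 2-fold in both libraries, *Fabp3* through few members, *Apoc2* and *S100g* below 0 in both, and *Krt19*, *Trh* and *Fgf5* at the upper end, where 4 members of each library hold most of the *Krt19* and *Trh* UMIs.

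By rank, the 10 genes highest in high-score members were *Pcdh7*, *Sfrp1*, *Fgf5*, *Krt19*, *Trh*, *Mest*, *Gm1673*, *Rspo3*, *Basp1* and *Sox4*. *Pcdh7*, *Sfrp1*, *Fgf5*, *Trh* and *Gm1673* had 0 UMIs in low-score control members. The exact lower limits of these control ratios were 22.7 for *Sfrp1*, 20.1 for *Pcdh7* and 16.9 for *Fgf5*. Such limits cover counting error only and leave out the spread between members, so they do not bound the difference between score groups. In the control these genes passed the minimum of UMIs through the high-score group alone. *Sfrp1* is also on the list of anterior genes. In the control 4 members held 83.1% of the *Sfrp1*, 60.2% of the *Pcdh7* and 76.3% of the *Fgf5* UMIs, and in *Yap1* cKO 81.8%, 92.9% and 56.6%. *Gm1673* rested on 1 cell in *Yap1* cKO, which held 84.1% of its UMIs. The 10 genes highest in low-score members were *Smpdl3b*, *Arhgef4*, *Apoa2*, *S100g*, *Gstm1*, *Lgals2*, *Gstm4*, *Crabp2*, *4933402E13Rik* and *Fabp1*.

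Promoters of these low-score genes were read for sites of factors that the members express, and 2 are shown. *Lgals2* was the one among them with a match. *S100g* had the highest *Yap1* cKO ratio among the 10 genes named as most above the other kept cells. The windows are the 250 bases before a RefSeq start on GRCm38.p6, on the strand of the gene, and capitals mark matches. *Lgals2* is read from chr15:78855530-78855779, minus strand, with CAAAGTCC (an HNF4 core) 79 bases before the start. *S100g* is read from chrX:162964600-162964849, minus strand, and holds no match.
Lgals2: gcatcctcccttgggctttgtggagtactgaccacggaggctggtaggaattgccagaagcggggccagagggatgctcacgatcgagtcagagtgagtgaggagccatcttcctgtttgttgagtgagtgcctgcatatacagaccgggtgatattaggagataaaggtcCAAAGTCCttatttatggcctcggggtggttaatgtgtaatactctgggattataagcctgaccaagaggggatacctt
S100g: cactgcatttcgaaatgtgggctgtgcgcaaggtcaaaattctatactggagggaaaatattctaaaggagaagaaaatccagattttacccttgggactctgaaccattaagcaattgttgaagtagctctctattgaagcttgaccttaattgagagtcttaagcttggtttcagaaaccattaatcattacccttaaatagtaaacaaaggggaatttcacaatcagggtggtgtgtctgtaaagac
The HNF4 core and a GATA site (the letters AGATAAG) were searched on both strands, and they do not overlap each other in these windows. Of the 10 low-score genes 9 had a promoter in the table, and 1 held the HNF4 core and 0 the GATA site. Of 7 high-score genes with a promoter, 0 held either. Over all 27025 genes with a promoter, 1.38% held the HNF4 core and 3.17% the GATA site. With so few genes these counts describe the windows only.

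An unsupervised view within each library gave a related but weaker picture. The first principal component of 2000 variable genes, with 5.78% of the variance in the control and 7.12% in *Yap1* cKO, followed depth: its correlation over cells with the number of detected genes was -0.82 over 68 members and 0.87 over 171 members, and with the score 0.44 and 0.28. The second component, looked at after the first had been seen, had correlations with the score of 0.71 and 0.49 and explained 5.27% and 2.67%. Cells of a library share its ambient RNA and depth structure, so no p is given. Of 15 leading genes on its side with the score, the libraries shared *Col23a1*, *Grb10*, *Igfbp2* and *Tspan7*. On the side against the score they shared *Apoa2*, *Aqp8*, *Fabp1*, *Phlda2* and *Tspan18*, of which *Apoa2* and *Fabp1* are also low-score genes above.

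Between genotypes, the transport and metabolic genes of the members were counted past 1.5-fold beside all genes tested. Of 7605 genes summing to 200 UMIs or more, 56 (0.736%) were at least 1.5 times as high in *Yap1* cKO and 83 (1.09%) at least 1.5 times as low. Beside these shares, a count of 0 or 1 in a list below is near the background. Over the 12 uptake genes tested the median log2 ratio was -0.06 with none past 1.5-fold, over 20 lysosome genes -0.05 with none, over 16 carrier genes 0.03 with none, over 9 iron genes 0.01 with none and over 10 cholesterol synthesis genes -0.06 with none. Glucose use (12 genes tested), retinoid handling (4), redox and amino acid enzymes (12) and plasma proteins (8) also had none, with medians of 0.01, 0.05, 0.05 and -0.21. The lipoprotein list had 1 of 9 higher, *Apoc3*, the fatty acid list 1 of 15 higher, *Ehhadh*, and the regulators 1 of 12 higher, *Sox7*. The brush border and epithelium list had 2 of 12 lower, *Krt18* and *Krt19*, with a median of -0.15. *Krt19* here rests on the members with high *Krt19* above. None of these single values can be read as an effect of the genotype, because each is 1 library against 1 library.

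*Cubn* was equal within counting error, at a ratio of 1.0 (0.978 to 1.03), as was *Lrp2* at 1.0 (0.946 to 1.06), and *Apob* was at 1.01 (0.993 to 1.03). *Apoc2* was at 1.21, *Apoe* at 0.848 and *Ctsl* at 0.808 (0.796 to 0.821). Among Y-bearing members, 23 and 8 cells, these went to the other side of 1, at 0.571, 1.23 and 1.19, and *Apob* was at 1.62. *Cyp26a1*, at 1.31 over all members, was at 8.05 there, and *S100g*, at 0.880, was at 0.246. *Apoc3* (chr9:46232933-46235636), an inhibitor of lipoprotein lipase, was at 56.1 (49.8 to 62.9) CPM in the control and 98.1 (92.9 to 103) CPM in *Yap1* cKO, a ratio of 1.75 (1.54 to 1.99). Per cell it ranged from 0 to 301 CPM (median 41.8) and from 0 to 315 CPM (median 79.1), so the ranges overlapped. *Fgg* was at 0.677 (0.605 to 0.759), *Fgb* at 0.771 and *Slc40a1* at 0.703, short of 1.5-fold. *Ehhadh*, a peroxisomal enzyme gene, was at 8.89 and 13.9 CPM and *Sox7* at 10.6 and 16.8 CPM, ratios of 1.57 (1.13 to 2.21) and 1.58 (1.17 to 2.16) from low counts.

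*Krt18* (chr15:102028180-102032027), a keratin gene of simple epithelia, was at 398 (381 to 416) CPM in the control and 264 (255 to 272) CPM in *Yap1* cKO, a ratio of 0.662 (0.627 to 0.699). Its partner *Krt8* was at 0.742 (0.694 to 0.794) and the adhesion gene *Epcam* at 0.724. Among Y-bearing members the *Krt18* ratio was 2.09 and that of *Krt8* 2.25, from 23 and 8 cells, and among *Xist*-bearing members they were 0.555 and 0.655. The direction thus differed between Y-bearing and *Xist*-bearing members, and that difference was not tested. From the low-score to the high-score group, Y-bearing members numbered 6, 8 and 9 in the control and 1, 3 and 4 in *Yap1* cKO. The part of the score or of single cells in the ratios among Y-bearing members was not tested either. Along the score the medians per cell of *Krt8* were 154, 142 and 290 CPM from the low-score to the high-score group of the control and 179, 151 and 134 CPM in *Yap1* cKO, and those of *Krt18* were 265, 349 and 389 CPM and 245, 200 and 215 CPM. Without the 4 members with high *Krt19*, *Krt18* and *Krt8* in *Yap1* cKO were at 0.936 and 0.881 of their low-score level.

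**Figure D4:**
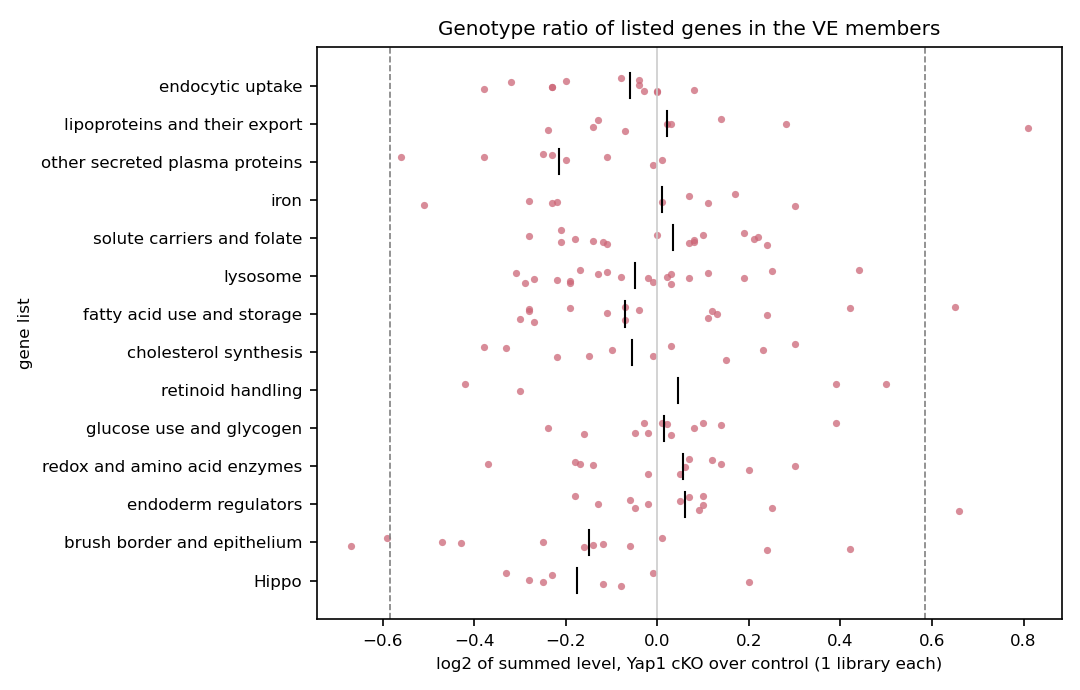
Log2 ratio of the summed level in *Yap1* cKO over control members for the tested genes of 14 lists, 1 library per genotype; each point is a gene, black bars are list medians and dashed lines mark 1.5-fold. Most points lie between the dashed lines, with *Apoc3*, *Ehhadh* and *Sox7* beyond on the right and *Krt18* and *Krt19* beyond on the left.

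The genes with the largest genotype ratios were also ranked. With the same direction in all 3 score groups, the 8 highest were *Adam2* at 4.18 (2.82 to 6.45), *Cdk5rap1* at 3.12 (2.26 to 4.41), *Cdkn1a* at 2.40 (1.66 to 3.58), *Wdfy1* at 2.27 (1.81 to 2.89), *B930036N10Rik* at 1.90, *Col27a1* at 1.85, *Rdh11* at 1.82 and *Dqx1* at 1.80. *Cdkn1a*, a cell cycle inhibitor gene, stood at 6.38 and 15.3 CPM, and *Rdh11*, a retinal reductase gene, at 21.8 and 39.9 CPM. *Adam2* UMIs came from 15 control and 44 *Yap1* cKO members, and 4 members held 51.9% and 57.9% of them. *Cdk5rap1*, in contrast, was found in 27 control and 128 *Yap1* cKO members, the top 4 holding 31.0% and 9.51%. The 8 lowest were *Cdkn2a* at 0.368 (0.301 to 0.450), *Pga5* at 0.460 (0.380 to 0.557), *Gm15879* at 0.501, *Hist1h4c* at 0.516, *Klhl13* at 0.528, *Ptgds* at 0.530, *Hist1h2ap* at 0.536 and *Bclaf3* at 0.540. *Cdkn2a*, another cell cycle inhibitor gene, was at 39.2 (34.0 to 45.0) and 14.5 (12.5 to 16.6) CPM, and in 55 of 68 and 92 of 171 members. *Pga5*, a pepsinogen gene, was at 38.9 and 17.9 CPM and also higher in high-score members, at 3.61 and 2.06. The histone genes are near-identical copies, so reads may be split among them.

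Several of these ratios differed in direction between subsets of the members. Restricted to Y-bearing members, 23 and 8 cells, 4 of the 8 highest genes went to the other side of 1: *Cdk5rap1* at 0.840, *Col27a1* at 0.791, *Dqx1* at 0.560 and *Wdfy1* at 0.492. Among the 8 lowest, *Hist1h4c* at 1.48, *Pga5* at 2.11 and *Ptgds* at 2.96 did the same. *Cdkn2a* stayed below 1 in both subsets, at 0.811 and, among *Xist*-bearing members, 0.389, and *Cdkn1a* stayed above, at 1.44 and 2.17. *Gm15879* was at 0.0782 among Y-bearing members. *Klhl13* and *Bclaf3* lie on the X chromosome.

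Lists of markers of other cell types were measured in the members beside their levels elsewhere. The extraembryonic ectoderm list of 9 genes had a median per member of 66.7 and 56.3 CPM, against 1006 and 888 CPM in extraembryonic ectoderm cells. Its most abundant gene in the members was *Cdx2*, at 31.3 and 30.5 CPM. *Cdx2* also chose the extraembryonic ectoderm cells, so part of this contrast describes their choice. The parietal endoderm list of 9 genes summed to 835 and 815 CPM, with medians per member of 783 and 750 CPM against 97.3 and 105 CPM in extraembryonic ectoderm cells and 152 and 138 CPM in *Pou5f1*-positive cells. It was led by *Col4a1* at 320 and 326 CPM, a basement membrane gene that visceral endoderm also uses, with *Thbd* at 0 and 0.219 CPM and *Plat* at 0 and 0.876 CPM. It passed 2000 CPM in 1 control and 7 *Yap1* cKO members. The blood and endothelium list of 8 had 0 UMIs of *Cd34*, *Tal1*, *Hbb-bh1* and *Hba-x*, and summed to 63.0 and 62.7 CPM, led by *Runx1*, with medians of 58.2 and 62.2 CPM against 24.5 and 27.3 CPM in extraembryonic ectoderm cells. The streak and mesoderm list of 9 summed to 192 and 206 CPM, led by *Msx1*, with medians of 170 and 197 CPM against 80.8 and 86.8 CPM in extraembryonic ectoderm cells and 3.62 and 29.5 CPM in *Pou5f1*-positive cells. Of the genes tested against the other kept cells, 3 of 7 parietal endoderm, 2 of 9 streak and mesoderm and 1 of 4 blood and endothelium genes lay 2-fold or more above in both libraries, where 10.9% of all genes tested did. The part of these cell types in the members' values was not tested. The immune and maternal list of 7 summed to 1.16 and 1.09 CPM.

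The epiblast list was higher in high-score members. The 9 epiblast genes had medians per member of 295, 306 and 525 CPM from the low-score to the high-score group of the control and of 295, 325 and 442 CPM in *Yap1* cKO, against 3134 and 2413 CPM in *Pou5f1*-positive cells. *Dnmt3b* was the most abundant, at 204 and 224 CPM, while *Nanog* was at 0.193 and 0.219 CPM and *Sox2* at 3.48 and 1.24 CPM. The epiblast genes *Fgf5*, *Pou3f1* and *Utf1* were among the 52, with 0, 3 and 13 UMIs in low-score control members. The 9 anterior genes had medians of 9.96, 20.3 and 74.1 CPM and of 9.17, 20.8 and 42.3 CPM, which describes the rules: *Lhx1*, *Hhex* and *Cer1* of this list are score genes and *Sfrp5*, *Dkk1* and *Hesx1* chose the members. The part of epiblast or anterior RNA in the high-score values was not tested. Scrublet, a caller of doublets, marked 1 member in each library, both high-score members, with 1031 and 1267 CPM of the epiblast list and 456 and 578 CPM of the extraembryonic ectoderm list.

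Mitochondrial shares separated a few members. The median was 1.52% in the control and 1.67% in *Yap1* cKO, with maxima of 2.69% and 9.44%, and 15 *Yap1* cKO members lay over 3%. Below 0.5% lay 2 control and 10 *Yap1* cKO members, of which 1 and 6 had no UMI of the nuclear RNA *Malat1*, against member medians of 1687 and 1760 CPM. Without these 12 members 1 gene in place of 2 lay past 2-fold in low-score members.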

How the data were processed

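Single-cell RNA-seq of 2 pools of E7 embryos gave 1 library per genotype. Per the submitters' processing notes the authors used Cell Ranger 7.1.0 and mm10, and the deposited values are raw UMI counts per gene and barcode, without normalization. No column was left unmapped. Members and lists were chosen with earlier results of these data known. Genes are matched by Ensembl identifier to GENCODE M21 on GRCm38 (32235 of 32285). Counts were summed over cells and scaled to CPM in python 3.11.15 with numpy 2.4.6, scipy 1.17.1 and pandas 2.3.3. Exact 95% intervals are Poisson for levels, Clopper-Pearson for shares and conditional binomial for the ratio of a pair of levels.

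Genotype ratios needed 200 UMIs over both libraries and were counted past 1.5-fold. Ratios between score groups needed 50 UMIs in the outer groups of each library and were counted past 2-fold. Scrublet ran in scanpy 1.11.5, and its calls stayed in. Genes named are those of each list with the highest level or past the fold, the 8 highest and lowest genotype ratios (intervals of the libraries apart, same direction in all score groups), the 10 leading genes of each outer score group and the 10 most above other kept cells. The rankings skip gate and score genes, *Xist*, *Tsix* and genes of chromosome Y, of the ribosome and of mitochondria. Other genes were named from the lists for their roles, after their values were seen. Results for a few listed genes are not reported here. Values were recomputed under 21 other settings of filters, gate, scaling, weights, minimums, sex and score, and under 3 chosen after seeing the data. On counts simulated for 7605 genes of the genotype comparison, the intervals covered the true ratio of unchanged genes in 95.3% of cases. The intervals leave out the spread between members and between embryos, so this share does not extend to that spread.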

Additional observations from a re-analysis of the deposited data

Results flagged for a closer look

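Barcodes below the minimum of 5000 genes were outside every comparison, and many of them passed the gate. In the control 186 of 1038 such barcodes passed the same gate (17.9%, 15.6 to 20.4), and in *Yap1* cKO 440 of 1033 (42.6%, 39.6 to 45.7). They are given because these shares pass the 0.289% and 0.290% that a count of 0 allows, a limit that free RNA alone could pass. Their median gate sums were 5993 and 7917 CPM, with medians of 1368 and 1428 detected genes and 2831 and 2678 UMIs. At such depths the limits on UMIs of the anterior genes and of *Pou5f1* exclude less than in the kept cells. How many anterior or *Pou5f1*-positive barcodes passed was not tested. They held a median of 16 and 19 gate UMIs and as few as 1, where kept extraembryonic ectoderm cells held a median of 0 and 1 and at most 6 and 64. Of those that passed, 133 and 105 held more gate UMIs than any such cell. The share that free RNA gives was not measured, and whether they are cells was not tested.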

How the results depend on the processing

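No paired analysis was possible because each genotype has 1 library and both carry replicate number 1. With a minimum of 2000 genes there were 127 and 332 members in place of 68 and 171, and no spread value, because the low range of the score was then empty.

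The 52 high-score genes numbered 13 at a gate sum of 5000 CPM, 13 with under 2 UMIs of *Sfrp5*, *Dkk1* and *Hesx1*, 6 with at least 200 UMIs, 31 without the 4 members with high *Krt19*, 38 with the score from thinned cells, 39 with the score cut in the middle and 40 without scrublet calls. Of these 12 of the 13 under 2 anterior UMIs, 33 of the 38 and 32 of the 39 were among the 52. The 2 low-score genes numbered 1 with at least 6000 genes, without scrublet calls, under 2 anterior UMIs, with cells weighted equally, without the 4 members and without members under 0.5% mitochondrial UMIs. With the score from thinned cells there was also 1, but neither of the 2. They numbered 0 at a gate sum of 5000 CPM, with the score cut in the middle and with at least 200 UMIs. *Gm1673* in *Yap1* cKO turned to 0.674 with under 2 anterior UMIs and to 0.929 with the thinned score.

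Between genotypes, the 83 lower genes numbered 55 at a gate sum of 5000 CPM and 46 with under 2 anterior UMIs. With at least 50 UMIs, 288 genes were higher and 393 lower, and with at least 1000 UMIs 2 and 7. Among Y-bearing members 102 genes were higher and *Yap1* was at 0.526, and among *Xist*-bearing members 119 and 1.2. In Y-bearing members the ratio turned, among genes past 1.5-fold, for *Cdk5rap1* (0.840), *Col27a1* (0.791), *Dqx1* (0.560), *Wdfy1* (0.492), *Hist1h4c* (1.48), *Krt18* (2.09), *Pga5* (2.11) and *Ptgds* (2.96). The cause was not tested. Of 2397 values of 142 single-gene results under the alternatives, 2011 stayed within the counting interval and 376 moved beyond it. Of those that moved, 37 crossed 1 from a ratio short of the fold, 15 of them among Y-bearing members, *Krt8*, *Apoc2*, *Apoe* and *Ctsl* included. The other 10 were ratios past the fold that turned. Counting depth limits ratios of genes with few UMIs, and 1 library per genotype limits all ratios between genotypes.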
